A study of Caenorhabditis elegans with 16 samples.

Results

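Of 15913 piRNA loci in the deposited table, 96 had at least 3 sense reads over 3 libraries of prg-1 null males and no excess of antisense over sense reads in the 6 libraries used here. A locus here is 1 name of piRNAdb, such as cel-piR-156, and a sense read is one on the strand of the piRNA. The null sense counts chose these loci, so their null levels are a description and carry no test. The antisense condition removed 0 of them.

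The libraries hold small RNA of whole adult male C. elegans, 3 of wild type and 3 of a prg-1 null mutant, whose allele the labels do not name. In both genotypes 20 to 30 males per library were picked at mid-L4 and collected 24 hours later, all at 25 °C. The RNA was treated with acid pyrophosphatase, which lets 5′ triphosphate small RNAs be cloned beside piRNAs, which carry a monophosphate. The other 10 of the 16 libraries of the series are not used here.

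PRG-1 is the Piwi-clade Argonaute of the worm germline. It binds the 21U-RNAs, the piRNAs of this animal, which are transcribed one by one as short capped precursors from many small genes, most of them on chromosome IV. A precursor is cut at its 5′ end, loaded into PRG-1, trimmed at its 3′ end and methylated there, and mature 21U-RNAs do not accumulate without the protein. Guided by piRNAs, PRG-1 directs the making of secondary small RNAs that silence transcripts in the germline. No sequence or position is printed for these loci, because no file used here gives one, and 0 of the 96 names matched the RefSeq gene table (WBcel235), which lists 15363 piRNA genes under other names.

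Depth was low for single loci. The libraries had 1029620 to 2288967 genome-mapped reads and 345 to 5959 sense piRNA reads, and 1 read was worth between 0.437 and 0.971 RPM (reads per 1000000 genome-mapped reads). The deposited files say nothing of how a read with several matches was counted, so reads could be split or repeated among loci of like sequence. Intervals and limits below cover counting error only and take no account of the choice of loci by their null reads, and nothing in the labels says that libraries of a genotype came from separate cultures.

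The 96 loci held most of the sense piRNA reads of the null and few of those of wild type. In null 1, 2 and 3 they took 287 of 345, 367 of 465 and 521 of 606 reads, or 83.2% (Wilson 95% interval 78.9 to 86.8%), 78.9% (75.0 to 82.4%) and 86.0% (83.0 to 88.5%). In wild type 1, 2 and 3 the same loci took 391 of 2732, 593 of 5959 and 138 of 1649 reads, or 14.3%, 9.95% and 8.37%. The high share in the null is fixed by the rule, which admits a locus by its null reads.

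As a level, the same loci were at 242, 213 and 228 RPM in null 1, 2 and 3, a mean of 228 ± 14.6 RPM (SD, n = 3). They were at 309, 319 and 134 RPM in wild type 1, 2 and 3, a mean of 254 ± 104 RPM (n = 3). The null libraries thus lay close together and inside the range of the wild type libraries, with a ratio of means of 0.895. Fewer cells of a type and less RNA per cell cannot be told apart in such bulk samples. All other loci together went from 2068 ± 733 to 47.6 ± 9.91 RPM, a fall that the rule also fixes in part, since no other locus could have more than 2 null reads.

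Wild type 3 was the library that stood apart. It had 134 RPM at the 96 loci, below all 3 null libraries, whereas at all other loci it had 1468 RPM against 1852 and 2885 RPM in wild type 1 and 2. Without wild type 3 the null to wild type ratio of the 96 loci was 0.724.

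**Figure D1:**
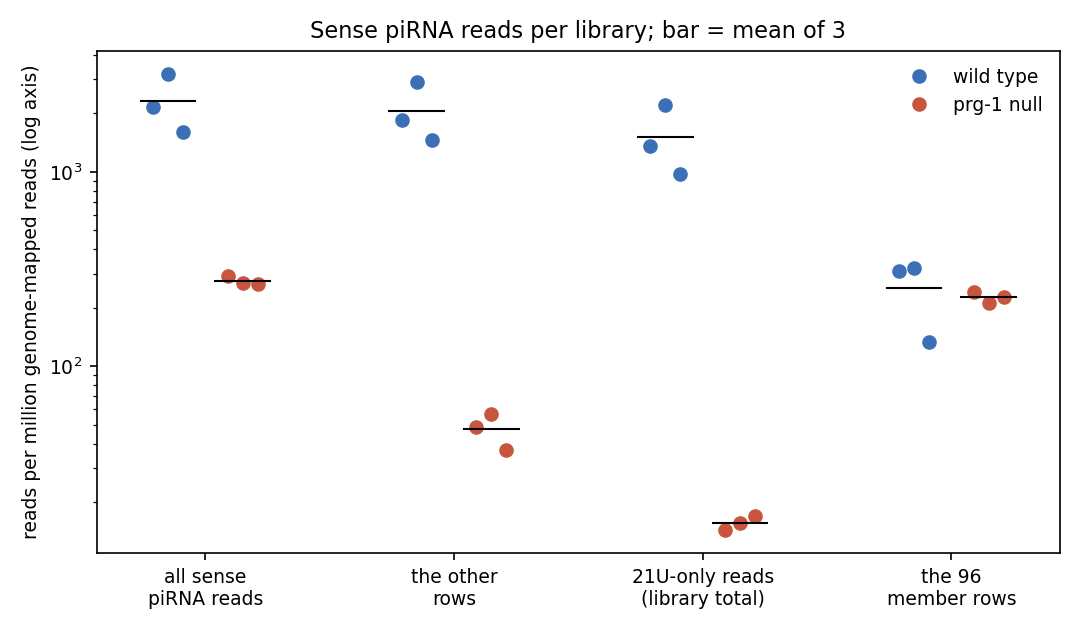
Sense RPM (log axis) in each of 3 wild type and 3 null libraries, for all piRNA loci, for the other loci, for 21U-only reads as the authors counted them over the whole library, and for the 96 loci (member rows). Points are libraries and bars are means; the null points lie inside the wild type range for the 96 loci only, and these loci were chosen on the null reads.

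By the authors' own count, few of the reads at these loci in the null can be among those classed as 21U only. The authors' deposited summary, whose header calls these reads mature, counts 17, 27 and 39 reads as 21U only in null 1, 2 and 3, over all piRNA loci, by a rule that the sources used here do not give. If every one of them fell within the 96 loci, at least 270 of 287, 340 of 367 and 482 of 521 reads there would still not be 21U only. That is at least 94.1%, 92.6% and 92.5% of the reads of these loci. For wild type no such limit exists, because 1711, 4105 and 1003 reads were 21U only, more than the 96 loci hold in each library. Reads that were not 21U only were common in wild type too. Over all piRNA loci they were 1021 of 2732, 1854 of 5959 and 646 of 1649 reads in wild type 1, 2 and 3.

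Reads at the 96 loci were concentrated in a few names. The 16 loci with at least 10 null reads held 838 of 1175 null reads (71.3%) and 621 of 1122 wild type reads (55.3%). As a group these 16 were at 150, 158 and 170 RPM in null 1, 2 and 3 and at 195, 168 and 61.2 RPM in wild type 1, 2 and 3. At the other end, 54 loci had only 3 or 4 null reads and together 15.3% of the null reads.

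cel-piR-156 had the most null reads, 21.3% of those at the 96 loci. It was at 45.5, 40.6 and 55.0 RPM in null 1, 2 and 3 and at 38.8, 36.0 and 28.2 RPM in wild type 1, 2 and 3. Every null library lay above every wild type library, by a small margin: the summed counts, 250 and 145 reads, gave a null to wild type ratio of 1.38 (95% interval 1.12 to 1.70). In wild type it ranked 8 among all loci, so it is an abundant name in both genotypes.

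cel-piR-12706 followed with 176 null reads, at 24.5, 32.5 and 39.8 RPM in null 1, 2 and 3. In wild type 1, 2 and 3 it was at 18.2, 35.5 and 3.88 RPM. The groups overlapped, and the lowest value was again that of wild type 3. These first loci together made up 28.9%, 34.3% and 41.7% of the reads of the 96 in null 1, 2 and 3. Leaving out that pair, 148 ± 20.9 RPM was left in the null and 201 ± 85.4 in wild type (n = 3 each).

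cel-piR-1592 showed the widest spread in wild type. It was at 63.3, 30.6 and 4.86 RPM in wild type 1, 2 and 3, and at 21.1, 17.4 and 10.9 RPM in null 1, 2 and 3. The null values sat within the wild type range. Its ratio of summed counts was 0.450 (0.338 to 0.596), an interval that leaves out this spread between libraries.

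cel-piR-1707 varied little among libraries of either genotype. It was at 13.5, 12.8 and 12.7 RPM in null 1, 2 and 3 and at 8.70, 11.8 and 12.6 RPM in wild type 1, 2 and 3. The groups did not overlap, but by less than a single read: the ratio of summed counts was 1.16 (0.788 to 1.73). It is the first row of the table and lies outside the long alphabetical run of names described below.

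cel-piR-898, cel-piR-15075 and cel-piR-15421 were read in every null library and in wild type 1 and 2, but had 0 reads in wild type 3. cel-piR-898 was at 9.28, 5.80 and 9.17 RPM in null 1, 2 and 3 and at 5.54 and 10.2 RPM in wild type 1 and 2. cel-piR-15075 was at 8.43, 4.06 and 6.99 RPM in the null and at 15.0 and 11.3 RPM in wild type 1 and 2. cel-piR-15421 was at 5.06, 5.80 and 3.50 RPM in the null and at 15.8 and 5.91 RPM in wild type 1 and 2. With wild type 3 counted, the groups overlapped in all 3 loci.

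cel-piR-15149 had 4, 16 and 14 reads in null 1, 2 and 3 and 2, 17 and 2 reads in wild type. For cel-piR-11803 the counts were 2, 12 and 13 in the null and 8, 7 and 3 in wild type. Their ratios of summed counts were 1.29 (0.729 to 2.35) and 1.20 (0.636 to 2.31), and the groups overlapped in both.

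**Figure D2:**
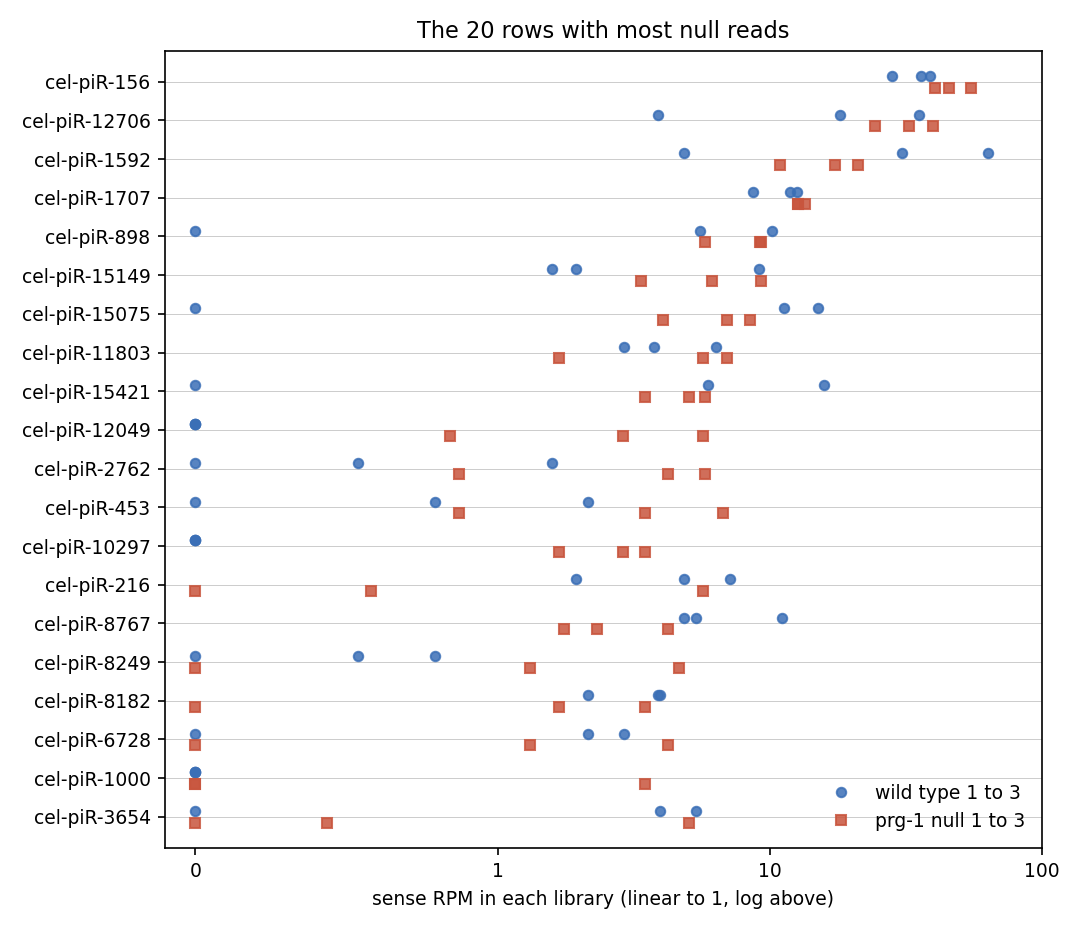
Sense RPM in each library (linear to 1 RPM, log above) for the 20 loci with most null reads, with wild type libraries as circles and null libraries as squares. The genotypes overlap for most loci, and cel-piR-12049, cel-piR-10297 and cel-piR-1000 have all wild type points at 0.

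Among the 20 loci with most null reads, some were rare in wild type. cel-piR-2762 had 5, 10 and 2 reads in null 1, 2 and 3 and 2, 1 and 0 in wild type, a ratio of 4.53 (1.31 to 24.1). cel-piR-453 had 8, 6 and 2 null reads against 1, 4 and 0, a ratio of 2.56 (0.895 to 8.92), and cel-piR-8249 had 0, 8 and 3 against 1, 1 and 0, a ratio of 4.39 (0.959 to 40.8). The groups overlapped in all 3 loci.

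Others had more reads in wild type, or about as many. cel-piR-8767 was at 11.1, 5.38 and 4.86 RPM in wild type 1, 2 and 3 and at 4.22, 2.32 and 1.75 RPM in null 1, 2 and 3. Here the highest null library was under the lowest of wild type, with a ratio of 0.358 (0.171 to 0.711). cel-piR-216 had 0, 1 and 13 reads in null 1, 2 and 3, so 92.9% of its null reads came from 1 library, against 9, 9 and 2 in wild type. The ratio was 0.559 (0.261 to 1.16). cel-piR-8182 and cel-piR-3654 had 8 and 7 null reads and 13 and 15 wild type reads. cel-piR-6728 had near equal counts, 8 null and 7 wild type reads, with a ratio of 0.913 (0.289 to 2.96). Each of these 3 had 0 reads in 1 null library.

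No wild type read was found for 36 of the 96 loci, which together had 169 null reads (14.4%). As a group they were at 44.7, 20.3 and 35.4 RPM in null 1, 2 and 3. A count of 0 allows up to 3 counts per locus over the wild type libraries together, or 0.722 RPM. Most of these loci rested on 1 library: 32 of the 36 were read in a single null library, and 3 in all 3.

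cel-piR-12049 led them with 1, 5 and 13 reads, or 0.843, 2.90 and 5.68 RPM, in null 1, 2 and 3. Its summed null reads stood at 5.06 times this limit. cel-piR-10297 had 2, 5 and 8 reads, or 1.69, 2.90 and 3.50 RPM, and stood at 3.99 times the limit. Both multiples take the null counts as exact, and those counts chose the loci, so neither is a lower bound. Both were read in every null library and in no wild type library. cel-piR-1000 had all 8 of its reads in null 3, and cel-piR-4083 all 6 in null 1. cel-piR-1471 had 2 reads in null 2 and 5 in null 3.

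At the opposite end, 20 of the 96 loci had at least 10 wild type reads, out of 178 loci in the table with that many (11.2%). Some of them were almost lost in the null and entered the list at its edge. cel-piR-10544, with 42, 72 and 8 reads in wild type 1, 2 and 3, had 0, 0 and 3 in null 1, 2 and 3, and was 50.9-fold lower by summed counts (17.0 to 250.2). cel-piR-14099 had 9, 55 and 27 wild type reads against 0, 0 and 4, 28.5-fold lower (10.7 to 106.7).

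cel-piR-9221 had 8, 37 and 5 wild type reads and 1, 0 and 2 null reads, 20.9-fold lower (6.74 to 104.6). cel-piR-10302 had 1, 22 and 6 against 0, 3 and 0, 12.1-fold lower (3.75 to 62.1), and cel-piR-1754 had 2, 10 and 1 against 4, 0 and 0, 4.07-fold lower (1.26 to 17.1). All null reads of cel-piR-10544, cel-piR-14099, cel-piR-10302 and cel-piR-1754 came from 1 library each.

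Just inside the threshold, at 3 null reads, stood 36 loci, led in wild type reads by cel-piR-10544, cel-piR-9221 and cel-piR-10302. Just outside, at 2 null reads, stood 65 loci, led by cel-piR-6101 with 747 wild type reads, cel-piR-6735 with 156 and cel-piR-9316 with 83. Together the 65 loci had 264 ± 96.6 RPM in wild type against 26.2 ± 5.63 in null libraries, and the 36 had 59.6 ± 27.3 against 22.3 ± 7.78 RPM (n = 3 each). A threshold of 2 would therefore bring in the most abundant piRNA of wild type, and it gives a null to wild type ratio of 0.489 over 161 loci.

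**Figure D3:**
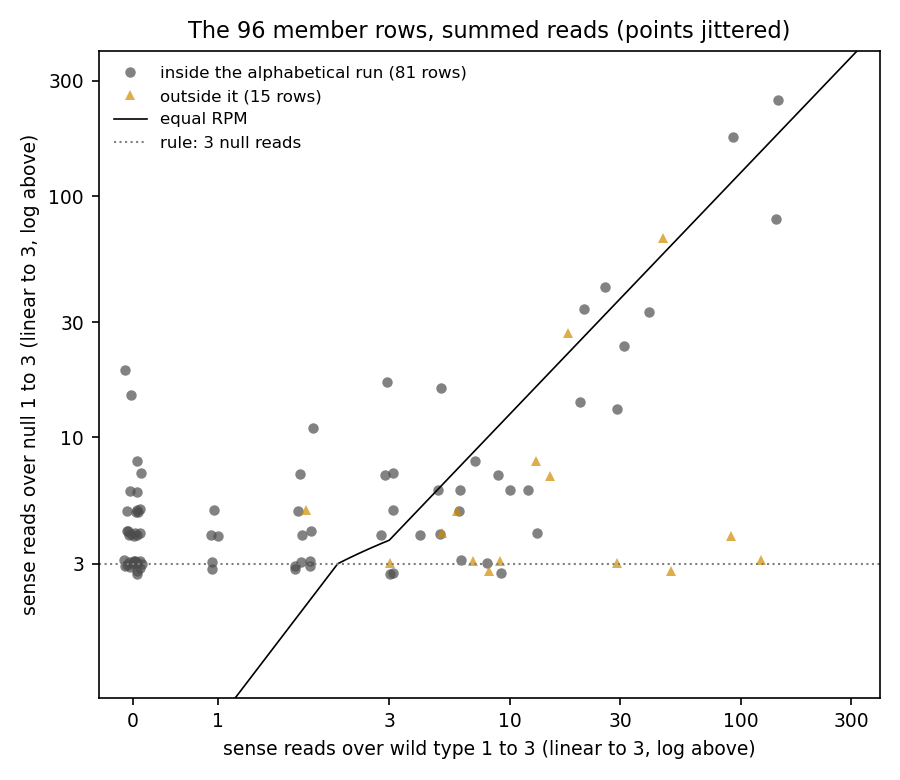
Sense reads summed over wild type 1 to 3 against those over null 1 to 3 for the 96 loci (both axes linear to 3 and log above, points jittered), with the line of equal RPM and the threshold of the rule. The loci with most null reads lie along the line, a column of 36 loci stands at 0 wild type reads, and cel-piR-10544 and cel-piR-14099 lie far to the right at 3 and 4 null reads.

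How broadly a locus was read in the null went with its number of reads, as it must in part. Of the 96 loci 18 were read in all 3 null libraries, 18 in 2 and 60 in a single one. Of the 16 loci with at least 10 null reads 14 were read in all 3, whereas of the 36 loci with 3 null reads 33 had all 3 in 1 library. Null 1, 2 and 3 had 20, 15 and 25 loci that no other null library shared, which made up 25.1%, 14.4% and 19.2% of their reads at the 96 loci. The highest count at such a locus was 8. No molecular identifiers are given for these PCR-amplified libraries, so 3 reads in 1 library may stand for fewer molecules. Only for 36 of the 96 loci does being read in the null rest on more than 1 library.

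**Figure D4:**
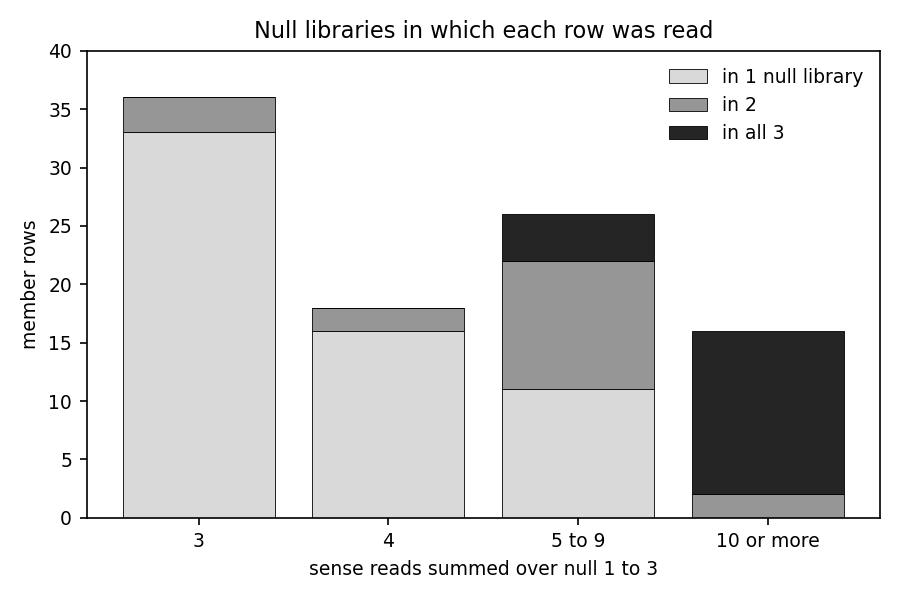
Number of loci (member rows) by sense reads summed over null 1 to 3, divided by whether they were read in 1, 2 or 3 null libraries. At 3 reads 33 of 36 loci were read in 1 library, and at 10 or more reads 14 of 16 were read in all 3.

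A choice made on the null reads of a pair of libraries could be followed in the third. Reads of the third entered only the antisense condition, which removed 0 loci. The same rule applied to null 2 and 3 gave 70 loci, of which 20 were read in null 1 (28.6%, against 0.547% of all 15913 loci). On null 1 and 3 it gave 74 loci, of which 26 were read in null 2 (35.1% against 0.773%). On null 1 and 2 it gave 63 loci, of which 23 were read in null 3 (36.5% against 0.754%). Only 1444 of the 15913 loci had a sense read in any of the 6 libraries, whereas every chosen locus had reads by the rule. The percentages over all loci are therefore low largely because most loci were empty, and nothing is read from these 3 contrasts. The numbers of chosen loci read again are a description.

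In the library left out, the chosen loci held 56.2% (Wilson 95% interval 51.0 to 61.4%), 62.6% (58.1 to 66.9%) and 63.7% (59.8 to 67.4%) of the sense piRNA reads of null 1, 2 and 3. As levels this was 164, 169 and 169 RPM, or 0.723, 0.729 and 0.944 of the wild type mean at the same loci. Those means were 226 ± 89.5, 232 ± 102 and 179 ± 85.9 RPM (SD, n = 3). The held-out values are lower than the level of 228 RPM that includes the choice. However, the held-out values are sums over 70, 74 and 63 loci and that level is a sum over 96. The gap therefore does not measure the effect of the choice alone.

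The loci with at least 10 reads in the choosing pair were nearly all read again: 12 of 14 in null 1, 13 of 13 in null 2 and 11 of 11 in null 3. Of those with 3 to 9 reads, 8 of 56, 13 of 61 and 12 of 52 were read again. No test was made on these shares, since the 3 choices overlap.

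**Figure D5:**
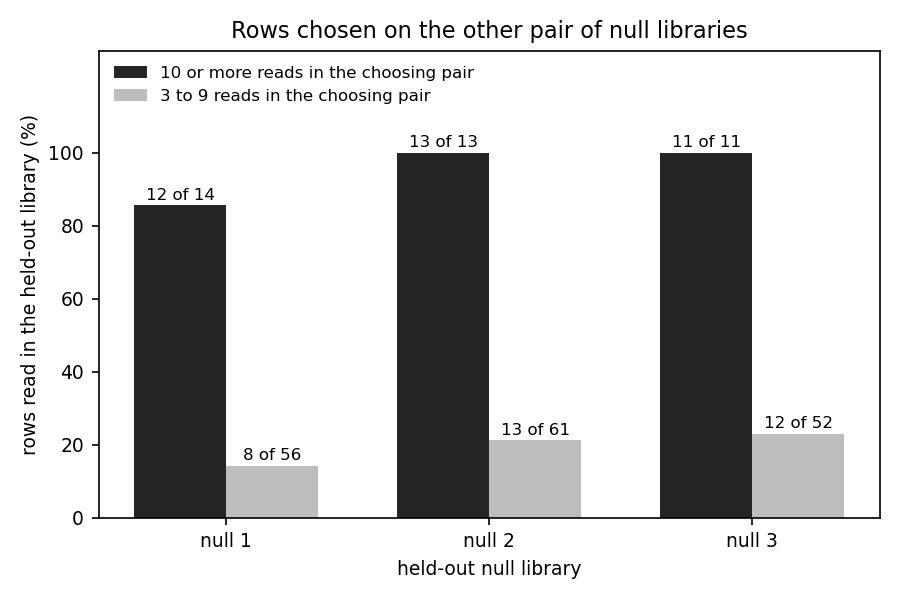
Percent of loci read in the null library that was left out of the choice, for loci with at least 10 reads and with 3 to 9 reads in the choosing pair, with the counts above the bars. The bars for 10 or more reads stand at 12 of 14, 13 of 13 and 11 of 11, and those for 3 to 9 reads at 8 of 56, 13 of 61 and 12 of 52.

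Between the genotypes, counts of single loci were compared with edgeR's quasi-likelihood test over all loci with at least 10 reads in at least 3 of the 6 libraries. Only 8 of the 96 loci passed this filter, and 0 of them were called lower or higher, where 70.4% of the 27 loci tested were called lower and 0% higher (Benjamini-Hochberg adjusted p under 0.05). The 8 were cel-piR-156, cel-piR-12706, cel-piR-1592, cel-piR-1707, cel-piR-898, cel-piR-15149, cel-piR-15075 and cel-piR-15421. Their log2 fold changes ran from -1.01 (SE 0.79) for cel-piR-1592 to 0.72 (SE 0.72) for cel-piR-12706, and the median was 0.34, beside -6.78 over all 27. At an unadjusted p under 0.05, 0 of the 8 were called by edgeR, and DESeq2 with the same library sizes also called 0. Since the rule took loci with null reads, nothing is read from this contrast.

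These values hold for genome-mapped reads as the denominator. Against all sense piRNA reads of a library, which were 8.44 times lower in the null as RPM, the 8 loci were all called higher, and with DESeq2's own size factors 6 were. The summed level of the 96 loci was then 7.60 times that of wild type, and against all sequenced reads it was 1.16 times. The direction of the ratio of 0.895 thus turns with the denominator. It also turns with the threshold of the rule: the ratio was 0.489 at 2 null reads, 1.15 at 5 and 1.13 at 10. Without wild type 3, cel-piR-1592 was called lower (log2 fold change -1.52), and without wild type 2, cel-piR-15149 was called higher (1.81).

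With a wider filter of at least 10 reads over the 6 libraries, 38 of the 96 loci entered among 198. Here 4 were called lower, where 71.7% of all loci tested were, and 2 higher, where 1.01% of all were. The 4 were cel-piR-10544, cel-piR-14099, cel-piR-9221 and cel-piR-10302, and the 2 were cel-piR-12049 and cel-piR-10297. Both have no wild type read and passed this filter through their null reads alone, which also chose them, so these calls carry no support. With no filter beyond 1 read, 3 of the 96 were called lower, where 6.16% of the 1444 loci were, and 0 higher, where 0% were, and 6 had an unadjusted p under 0.05. Nothing is read from these contrasts either.

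Every null library lay above every wild type library for 5 of the 96 loci, against 0.346% of the 1444 loci with a read, and below for 4, against 9.63%. The 5 were cel-piR-156, cel-piR-1707, cel-piR-12049, cel-piR-10297 and cel-piR-14781, which had 4, 1 and 1 reads in null 1, 2 and 3 and none in wild type. The 4 were cel-piR-8767, cel-piR-14099, cel-piR-10544 and cel-piR-9221. A locus above wild type in each null library needs a read in each, so the count of reads alone places it among the 96.

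The other abundant piRNAs give the background to these loci. There were 158 loci outside the 96 with at least 10 wild type reads, and their summed level went from 1381 ± 525 RPM in wild type to 5.25 ± 2.53 RPM in the null (n = 3 each). Of the 158, 135 had no null read and 23 had 1 or 2, and in 102 the groups did not overlap, with the null below. Being outside the 96, none could have more than 2 null reads, so the choice of these loci fixes this fall in large part. The 102 are as many as were read in all 3 wild type libraries. The 20 of the 96 loci with at least 10 wild type reads had 218 ± 91.5 RPM in wild type against 153 ± 8.08 in null libraries. Of these 20, 14 had a ratio of summed counts under 1 and 6 above it.

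Antisense reads at the 96 loci were few, and antisense sums were part of the rule. They had 4, 5 and 0 antisense reads in wild type 1, 2 and 3 and 0 in each null library, which allows up to 0.577 RPM over the null group. The other 15817 loci had 110, 249 and 69 antisense reads in wild type 1, 2 and 3 and 108, 200 and 228 in null 1, 2 and 3. Only 1348 of these other loci had a sense read in the 6 libraries, whereas each of the 96 did by the rule. Antisense reads per locus are therefore not compared between the lists. A null count of 0 over so few loci says little. The 9 reads at the 96 loci fell on cel-piR-8767 (4), cel-piR-4784 (4) and cel-piR-7011 (1). cel-piR-4784 had 5 sense reads, all in null 1, and none in wild type, so it came closest to the limit of the antisense condition.

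The place of a locus in the deposited table also bears on how far the tie of its name to its counts could be checked. Of the 15913 rows, 15203 form 1 alphabetical run of names, and 313 rows before it and 397 after it are in another order. Of the 96 loci 81 lie in the run and 15 outside it. In the run, loci read in both a null and a wild type library were 11.5 to 27.5 times as frequent as if the libraries were unrelated, and outside it 1.06 to 2.44 times, where nearly every row has a wild type read. With a wild type read in 708 of the 710 rows outside the run, this measure has less room to rise there than in the run. It therefore checks the match of null to wild type counts less well for the 15. These include cel-piR-1707, cel-piR-11803, cel-piR-8182, cel-piR-3654, cel-piR-10544, cel-piR-14099, cel-piR-9221 and cel-piR-10302. Rank correlations of null with wild type libraries, over loci with a read, were -0.097 to 0.115 in the run and 0.047 to 0.208 outside it. Between wild type libraries they were -0.104 to 0.021 in the run and 0.214 to 0.305 outside it. In the run this measure was thus low even within wild type. It cannot rank how well the parts of the table were matched, and nothing is read from it.

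The 81 loci in the run had 159 ± 83.1 RPM in wild type against 198 ± 11.5 in null libraries (n = 3 each), a ratio of 1.24. The 15 outside it had 94.7 ± 36.1 against 29.9 ± 6.66 RPM, a ratio of 0.315. All 36 loci without a wild type read lie in the run. This was nearly fixed in advance, since 14597 of 15203 rows in the run have no wild type read, against 2 of 710 outside it.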

How the data were processed

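Small RNA libraries of wild type and prg-1 null males (replicates 1 to 3 each) were used. The authors deposited whole-number read counts: sense and antisense counts per piRNAdb name, counts per bin of ce11, and total, genome-mapped, piRNA and 21U-only counts per library, per the file headers. Per the submitters' processing notes, cutadapt 3.7 and FastQC 0.12.0 were used; no source used here names the aligner or how multiply matching reads were treated. Column sums equalled the deposited piRNA totals. The 20 columns of the other 10 libraries were not used, and 5 rows without a piRNA name were dropped.

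Loci were taken by the rule given in the report, and RPM were computed from the counts with genome-mapped reads. The loci and lists were chosen with earlier results of these data known. Named loci were the 20 with most null reads, the 5 others with most wild type reads, the 5 with no wild type read and most null reads, 3 on each side of the threshold, those that passed the count filter and the 3 with most antisense reads; cel-piR-14781 was named after its values were seen.

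The main test was the quasi-likelihood test of edgeR 4.0.16 under R 4.3.3. Library sizes were the genome-mapped totals, with Benjamini-Hochberg adjustment over all loci tested. The fit was tested on simulated data, with counts set well above the real ones and large changes in the most-read loci. That run does not show how the test does at the depth of these libraries. DESeq2 1.42.0 was an alternative. The held-out library, the split by table position, the rule without 1 null library and the level without the 2 loci with most null reads were added after the data were seen. Standard errors of fold changes were derived from the F statistics. Ratios of summed counts carry exact conditional 95% intervals. Replicate numbers are shared between genotypes: deviations of same-numbered libraries from their group means correlated by 0.567, 0.115 and 0.215 over the 27 loci tested, which met the limit set for treating them as pairs, and by 0.140, -0.0476 and -0.207 over the genome bins. This pairing comes from the data, not from the labels. No replicate pair came near sampling noise over the bins (chi-square per degree of freedom at least 41.2).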

Additional observations from a re-analysis of the deposited data

How the results depend on the processing

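Of 27 loci tested, 19 were called lower and 0 higher; with a sum of at least 10 reads 142 of 198 were lower and 2 higher, and with no filter 89 of 1444 and 0. Against all sense piRNA reads 8 loci were called higher and with DESeq2's own size factors 6, all among the 96; the median over all loci tested moved from -6.78 to -4.28 and -4.03, and to -6.94 with TMM factors and -6.48 with total reads. With 1 library left out, over the same 27 loci (a choice made after seeing that the filter on fewer libraries left too few loci), the calls were 19 to 20 lower and 0 to 1 higher, and among the 8 loci of the 96 these were 0 to 1 lower (1 without wild type 3) and 0 to 1 higher (1 without wild type 2); with the wider filter 4 of the 96 were lower and 2 higher, and with no filter 3 lower. With the replicate block 19 were lower and 0 higher, and no call changed. The sign of the log2 fold change reversed for cel-piR-1592 (2.05 against piRNA reads, 1.34 with DESeq2's own size factors), cel-piR-15075 (2.63 and 2.06, and -1.02 to 0.071 with 1 library left out) and cel-piR-15421 (2.42 and 1.75, 0.040 with the replicate block and -1.16 to 0.50 with 1 library left out); both turned positive without wild type 1. The number of loci was 161, 42 and 16 with thresholds of 2, 5 and 10 null reads, 18 with a read in each null library and 63 with null 3 left out of the rule. The share of null reads (82.7%) was then 92.2, 69.5, 58.0 and 58.3% for the first 4 of these, and the share of wild type reads (10.9%) 22.2, 7.09, 6.02 and 6.04%. The null to wild type ratio of 0.895 was 0.489, 1.15 and 1.13 with thresholds of 2, 5 and 10, and 1.13 with a read in each null library. It was 7.60 against piRNA reads, and 0.724 to 1.03 with 1 library left out. Why these values moved was not tested beyond what each setting changes by construction. Single loci with 3 or 4 reads are at the limit of this depth.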

Other observations

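The 710 rows outside the alphabetical run hold 1935, 4555 and 1180 sense reads in wild type 1, 2 and 3, and 59, 75 and 73 in null 1, 2 and 3. The authors' 21U-only counts are 1711, 4105 and 1003, and 17, 27 and 39. The rows in the run hold 797, 1404 and 469 reads in wild type and 286, 390 and 533 in the null, beside 1021, 1854 and 646, and 328, 438 and 567, reads that were not 21U only. The sources used here do not say what the rows were sorted on, and the per-locus counts are not divided by read length.

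Among loci with at least 3 wild type reads, 30 of 235 in the run belong to the 96 (12.8%), and 14 of 415 outside it (3.37%). In the run, these 30 had 153 ± 81.5 RPM in wild type against 152 ± 3.45 in null libraries (n = 3 each). The 14 outside it had 94.1 ± 36.4 against 28.9 ± 7.16 RPM. These are descriptions, since the null reads chose the loci.

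Of all 272 loci with any null read, 232 were read in a single null library, 22 in 2 and 18 in all 3, and the 18 are all among the 96. Of the 272 loci 130 had no wild type read.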
